A study of Saccharomyces cerevisiae with 4 samples.

Results

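The ferric and cupric reductases of Saccharomyces cerevisiae form a family of 8 genes, FRE1 (YLR214W), FRE2 (YKL220C), FRE3 (YOR381W), FRE4 (YNR060W), FRE5 (YOR384W), FRE6 (YLL051C), FRE7 (YOL152W) and FRE8 (YLR047C). The members were taken by ORF name, and the family was chosen by its measured tetraploid-to-haploid fold changes in these libraries. All 8 were present among the 6348 ORFs listed in the deposited tables. The study compared the transcriptomes of a haploid and a tetraploid strain of the Σ1278b background, a laboratory background that can grow as filaments. Poly(A) RNA of mid-log cultures in synthetic complete medium with glucose was sequenced as 2 haploid and 2 tetraploid libraries, which the labels pair by the letters A and B. The haploid strain was MATa and the tetraploid was the isogenic MATaaaa strain, so that both carried the a mating type only. Both strains also carried the auxotrophic alleles ura3-52, leu2::hisG and his3::hisG, and each ploidy was represented by 1 strain.

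Yeast cells take up little oxidized metal directly. Fre proteins are heme- and flavin-containing membrane reductases that pass electrons from NADPH across a membrane to ferric iron, ferric siderophores or cupric copper, and the reduced metal is then moved by the high-affinity iron permease complex, the copper transporters or low-affinity transporters. Most FRE genes are transcribed under the iron-responsive factors Aft1 and Aft2, and FRE1 and FRE7 also respond to the copper-responsive factor Mac1.

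The ORF counts of the 4 libraries summed to 3612527 to 4133193, of which 37% to 43.7% lay on 11 ORFs of the ribosomal DNA region. Levels are given as CPM, the reads of an ORF per 1000000 reads of the library, after scaling by the trimmed mean of M-values (TMM), whose factors ran from 0.840 to 1.19. A level is therefore relative to the rest of the same library, and in bulk RNA fewer cells carrying a transcript and less of it per cell cannot be told apart. The mating type that the study gives for the strains was checked with marker genes. The 5 a-specific markers were present in every library. The pheromone receptor gene STE2 had 454 to 2085 reads, and MFA1, the lowest of the 5, had 34 to 184. All 5 were lower in tetraploids in edgeR (median log2 fold change -1.94). Of the 3 alpha-specific markers, the alpha-factor genes MFALPHA1 and MFALPHA2 had 0 to 2 and 2 to 13 reads per library. The a-factor receptor gene STE3 had 28 to 32. In tetraploid A the 34 reads of MFA1 were close to the 32 of STE3. STE3 did not pass between ploidies (adjusted p = 0.599). Their part in the differences of the reductase genes was not tested.

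The 8 reductase genes were low to moderately transcribed, with 653 to 1018 reads in all per library. Per kilobase of coding sequence, FRE1, which encodes the main surface reductase for iron and copper, held the highest level in the family in every library, and FRE6, which encodes the reductase of the vacuole membrane, held the next. FRE1 stood at 51.7 ± 12.2 CPM per kilobase (SD, n = 2) in haploids and 25.5 ± 5.23 in tetraploids, and FRE6 at 30.3 ± 3.57 and 23.3 ± 6.32. The values of these 2 genes did not overlap in haploids and overlapped in tetraploids. FRE4, a siderophore reductase gene, was the only member whose place in the order differed between ploidies in both pairs by more than 1 step. It had rank 3 in both haploids, at 19.7 ± 5.54 CPM per kilobase, and rank 6 in both tetraploids, at 3.63 ± 1.17.

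FRE5 (9.90 ± 3.49 CPM per kilobase over the 4 libraries, SD), FRE3 (8.20 ± 2.57) and FRE8 (6.09 ± 1.35) formed the middle of the order. FRE5 and FRE3 overlapped in both ploidies, and FRE3 and FRE8 overlapped in tetraploids only. FRE2 (2.20 ± 0.419) and FRE7 (1.85 ± 0.208) were the lowest and overlapped in haploids. By the mean over the 4 libraries FRE1 lay above 65.2% of the tested genes, FRE6 above 54.2%, and FRE2 and FRE7 above 0.529% and 0.170%. The order over the 4 libraries was the same when levels were scaled by total counts alone.

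**Figure D1:**
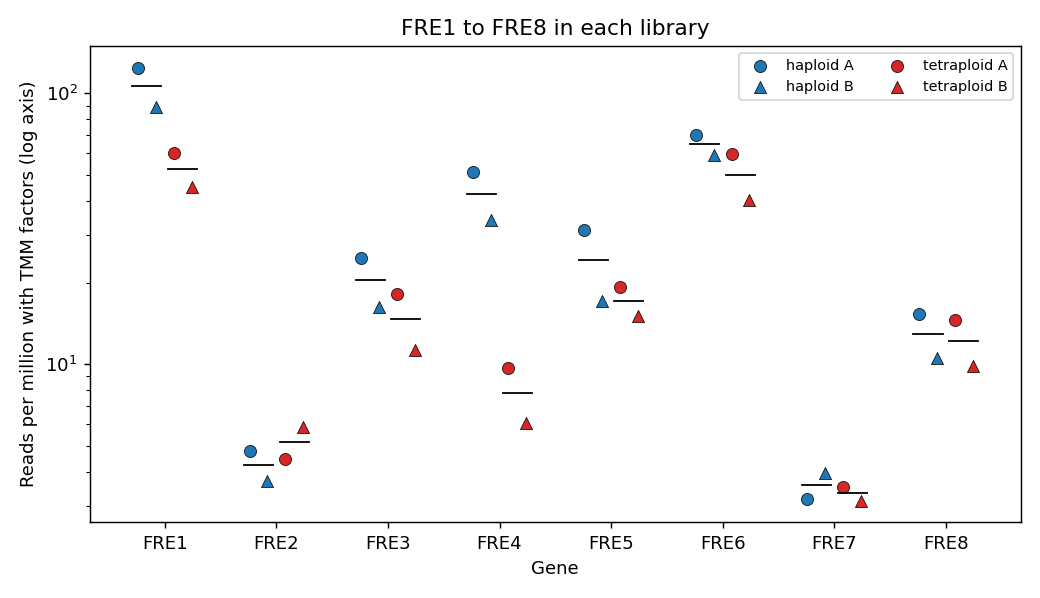
Level of each reductase gene in each library, in TMM-scaled CPM on a log axis, with one point per library and a bar at the mean of each ploidy. FRE1 and FRE4 are the members whose haploid and tetraploid libraries do not overlap, and FRE2 and FRE7 lie lowest.

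The comparison of tetraploids with haploids addressed which genes respond to ploidy. The family was picked out with its values in this comparison known, so that they are given here as a description, without a test. In the fit over all genes, 2 of the 8 members passed the threshold as lower in tetraploids, where 5.35% of the 5680 tested genes did, and 0 passed as higher, where 2.52% did. These members were FRE4 and FRE1. With a minimum of 30 reads, 3 of the 6 members tested passed as lower, FRE6 being the added one. Over all genes, 473 passed as lower at that minimum, against 304 in the main fit. Nothing is read from these counts.

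FRE4 encodes a reductase of iron bound to siderophores, the iron chelators released by microbes. It had 160 and 120 reads in haploids A and B and 41 and 29 in tetraploids A and B, or 51.0 and 34.1 CPM against 9.63 and 6.06 CPM. Both tetraploids lay below both haploids. The mean level was 42.5 ± 12 CPM (SD, n = 2) in haploids and 7.85 ± 2.53 CPM in tetraploids, a 5.42-fold difference. The log2 fold change of tetraploid over haploid was -2.44 (SE 0.20), and the separate pairs gave -2.39 (A) and -2.47 (B). It was rank 6 from the lowest among the tested genes.

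FRE1 had 390 and 313 reads in haploids and 256 and 215 in tetraploids, or 124 and 88.8 CPM against 60.2 and 44.9 CPM. Its groups were also separate, with the lower haploid above the higher tetraploid. The log2 fold change was -1.02 (SE 0.13), a 2.02-fold lower mean in tetraploids, and was close in the pairs (-1.05 for A, -0.98 for B). FRE1 was rank 81 from the lowest. FRE1 and FRE4 were the members whose ploidies did not overlap in CPM, where 20.5% of the tested genes did not overlap with tetraploids lower and 21.9% with tetraploids higher.

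The members with the other surface and siderophore functions had smaller differences. FRE3, the second siderophore reductase gene, was at 24.5 and 16.2 CPM in haploids and 18.1 and 11.3 CPM in tetraploids. Its ploidies overlapped, because haploid B lay below tetraploid A, although tetraploids were lower within each pair (log2 fold changes of -0.44 for A and -0.52 for B). FRE2, which encodes the second surface ferric reductase, was at 4.78 and 3.69 CPM in haploids and 4.46 and 5.85 CPM in tetraploids. The tetraploid was lower in pair A (-0.11) and higher in pair B (0.64), on 13 to 28 reads per library.

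FRE6, the gene of the vacuole membrane reductase, was at 70.1 and 59.3 CPM in haploids and 59.4 and 40.3 CPM in tetraploids. Tetraploid A and haploid B lay at almost the same level, so that the ploidies overlapped (log2 fold change -0.39, SE 0.14). FRE5, whose product has been found in mitochondria, was at 31.2 and 17.0 CPM in haploids and 19.3 and 15 CPM in tetraploids. FRE5 overlapped between ploidies, and its within-pair log2 fold changes were the most unequal of the members lower in both pairs, with -0.70 for A and -0.18 for B. FRE8, a family member of less studied function, differed little, at 15.3 and 10.5 CPM in haploids against 14.6 and 9.82 CPM in tetraploids (log2 fold change -0.08, SE 0.23). FRE7, which is known to be induced on copper limitation, was at 3.19 and 3.97 CPM in haploids and 3.52 and 3.13 CPM in tetraploids. Its 10 to 15 reads per library gave a log2 fold change of -0.12 with an SE of 0.41.

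**Figure D2:**
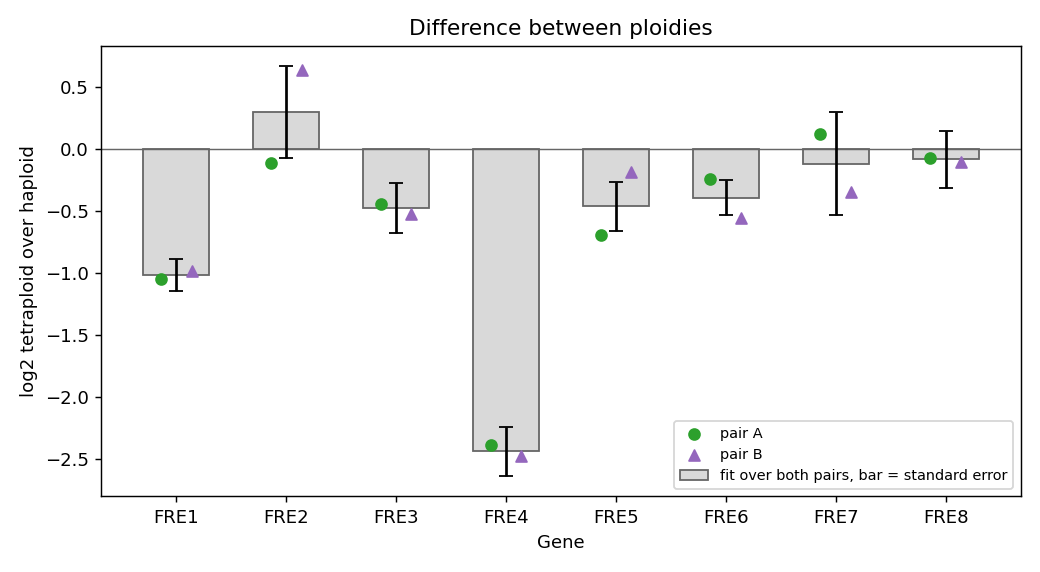
Log2 fold change of tetraploid over haploid for each reductase gene, with the fitted value and its standard error and separate marks for pair A and pair B. FRE4 (-2.44) and FRE1 (-1.02) lie farthest below 0, and the pairs of FRE2 and FRE7 lie on opposite sides of 0.

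Of the 8 fitted log2 fold changes 7 were below 0, with a median of -0.43, where the median over all tested genes was 0.01. Scaled by total counts instead, the tested genes had a median of 0.298, 5 members were below 0, and FRE7 (0.17) and FRE8 (0.21) took a positive sign. FRE4 passed the threshold with or without the pair as a term of the model and FRE1 with that term only. Without it, 0.317% of the tested genes were lower and 0.0704% higher. Since the family was chosen by these fold changes, passing the threshold is a description and no further support.

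Summed over the 8 genes, the family stood at 324 and 234 CPM in haploids A and B and at 189 and 136 CPM in tetraploids A and B. Haploid levels were 1.72-fold those of the tetraploid in pair A and 1.71-fold in pair B. FRE1 made up 46.5% of the mean difference of 116 CPM, FRE4 29.8% and FRE6 12.8%. Without FRE1 and FRE4 the ratio was 1.25 for pair A and 1.30 for pair B. The makeup of the family differed most in FRE4, whose share of the summed CPM per kilobase was 15.3% and 14.2% in haploids and 4.94% and 4.31% in tetraploids. A share within a library does not depend on the scaling of the libraries.

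**Figure D3:**
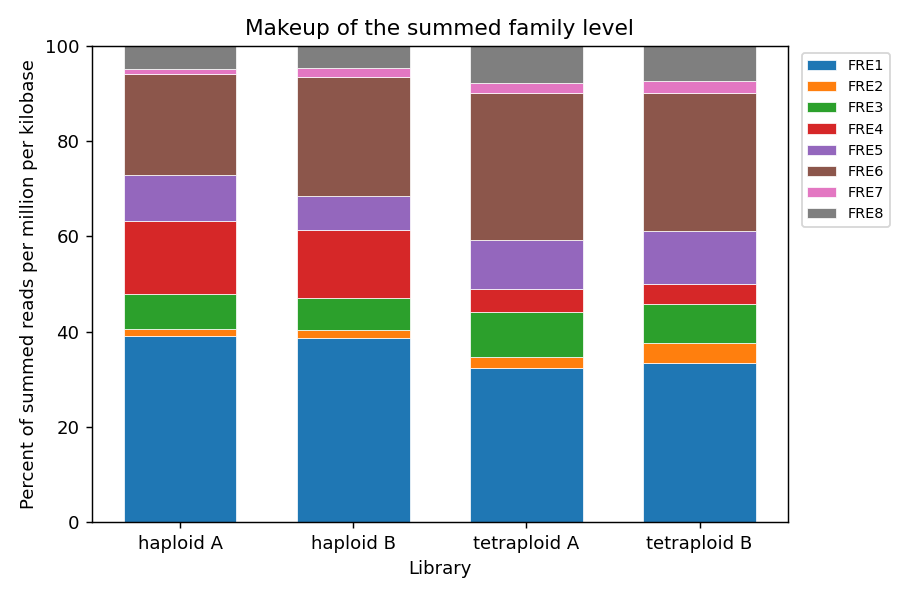
Makeup of the reductase family in each library as the percent of the summed CPM per kilobase held by each gene. The FRE4 segment is 14.2% to 15.3% in the haploid libraries and 4.31% to 4.94% in the tetraploid libraries.

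The libraries of pair B were compared with those of pair A in the same model, with ploidy as the other term. The rule for the family did not use this comparison, although it uses the same 4 libraries. In edgeR 1 of 8 members passed as lower in pair B (6.34% of tested genes) and 0 passed as higher (3.15%). At an unadjusted p under 0.05, 6 members were lower and 0 higher, where 760 and 615 of the 5680 tested genes were. The member that passed was FRE1, with a log2 fold change of pair B over pair A of -0.45 (SE 0.13, adjusted p = 0.0400). It was lower in pair B in both ploidies (-0.48 in haploids and -0.42 in tetraploids).

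The remaining members did not pass the test. FRE3 (-0.64, SE 0.20, adjusted p = 0.0570), FRE4 (-0.61, SE 0.19, adjusted p = 0.0591) and FRE5 (-0.61, SE 0.20, adjusted p = 0.0677) had lower values in pair B in both ploidies, as did FRE6 (-0.40, adjusted p = 0.0919) and FRE8 (-0.56, adjusted p = 0.143) in the same edgeR fit. FRE2 (0.09, adjusted p = 0.918) and FRE7 (0.05, adjusted p = 0.959) had opposite signs in the 2 ploidies. The pairs did not overlap in CPM for FRE3, FRE5, FRE6 and FRE8, where 19.7% of tested genes did not overlap with pair B lower and 21.2% with pair B higher. For FRE6 this rested on a near tie, with tetraploid A at 59.4 CPM and haploid B at 59.3 CPM. The number of members called depended on the settings. It was 5 of 8 with the size factors of DESeq2 or without the ribosomal DNA ORFs, and 5 of the 6 tested with at least 30 reads required. Over all genes, 485 were lower with those size factors and 475 without the ribosomal DNA ORFs, against 360 in the main fit. No setting, the minimum of 30 reads included, gave more than 485 lower. The number of members called was 0 with total counts (FRE1 -0.24, adjusted p = 0.186), with no read minimum, or without the ploidy term. The DESeq2 test gave an adjusted p only to FRE1 (0.303) and FRE6 (0.510), which did not pass, and none to the other members, so that its count says nothing of them.

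**Figure D4:**
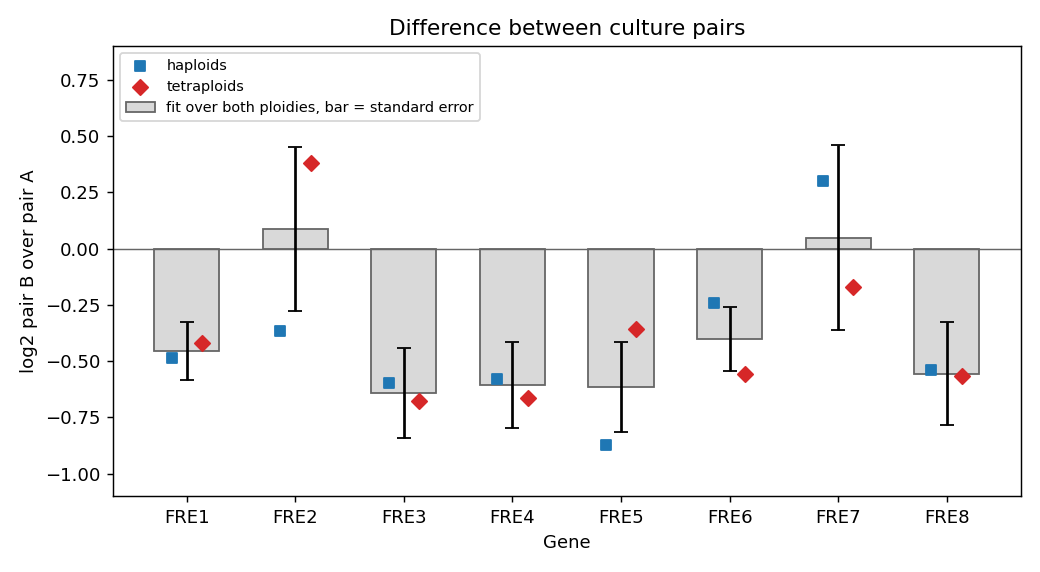
Log2 fold change of culture pair B over pair A for each reductase gene, with the fitted value and its standard error and separate marks for the haploid and the tetraploid libraries. Of the 8 fitted values 6 lie between -0.64 and -0.40, and FRE2 and FRE7 lie near 0 with wide errors.

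Genes that act beside the reductases were compared between ploidies by the same edgeR test. The 20 tested genes of iron uptake and the iron regulon had a median log2 fold change of -0.22. At an unadjusted p under 0.05, 7 were lower and 1 higher in tetraploids, where 806 and 600 of all tested genes were. Past the threshold, 3 of the 20 fell in tetraploids (5.35% of all tested genes) and 0 rose (2.52%). These were ENB1, the transporter of the siderophore enterobactin (-0.80, adjusted p = 0.0019), ARN1, the transporter of ferrichrome-type siderophores (-0.55, adjusted p = 0.0423), and FTR1, the high-affinity iron permease (-0.45, adjusted p = 0.0408). ENB1 was at 78.4 and 68.4 CPM in haploids and 46.1 and 38.4 CPM in tetraploids. FTR1 was at 230 and 316 CPM in haploids and 189 and 206 CPM in tetraploids. The ploidies did not overlap for ENB1, FTR1 and ARN1, where 20.5% of the tested genes did not overlap with tetraploids lower. FET3, the multicopper oxidase that works with the Ftr1 permease, had 472 and 509 CPM in haploids and 444 and 331 CPM in tetraploids and did not pass (-0.36, adjusted p = 0.118). FET3 passed as lower with the size factors of DESeq2 (adjusted p = 0.0471), without the ribosomal DNA ORFs (0.0450) and at a minimum of 30 reads (0.0449). The cell wall siderophore-retention genes FIT2 (-0.56, adjusted p = 0.366) and FIT3 (-0.56, adjusted p = 0.183) did not pass. SIT1, also a siderophore transporter gene, went the other way and did not pass (0.42, adjusted p = 0.0859). It was the 1 higher gene at an unadjusted p under 0.05, at 47.2 and 69.5 CPM in haploids and 74.0 and 80.7 CPM in tetraploids. Its ploidies did not overlap, where 21.9% of the tested genes did not overlap with tetraploids higher.

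Of the 9 regulators of iron and copper genes, 2 rose in tetraploids (2.52% of all tested genes) and 0 fell (5.35% of all tested genes, and 0 regulators at an unadjusted p under 0.05). AFT1, the iron-responsive activator, was at 34.7 and 33.2 CPM in haploids and 53.1 and 44.3 CPM in tetraploids (log2 fold change 0.51, adjusted p = 0.0470). FRA1, whose product takes part in restraining Aft1 when iron is sufficient, was at 44.3 and 55.3 CPM in haploids and 66.3 and 71.9 CPM in tetraploids (0.47, adjusted p = 0.0476). AFT2 (0.28, adjusted p = 0.415) and the copper-responsive MAC1 (-0.16, adjusted p = 0.639) did not pass. Among 8 copper genes tested, COX17, a copper chaperone for cytochrome oxidase, rose (0.64, adjusted p = 0.0339), and the copper transporter gene CTR1 had a log2 fold change of 0.21 (adjusted p = 0.442). CTR3, another copper transporter gene, had the largest difference of the list (1.33, adjusted p = 0.0543) and did not pass. It was at 4.14 and 1.70 CPM in haploids and 6.81 and 7.52 CPM in tetraploids, on 6 to 36 reads per library. At an unadjusted p under 0.05, 2 copper genes were higher and 0 lower, where 600 and 806 of all tested genes were. Among 8 heme synthesis genes HEM1, the gene of the first enzyme of the pathway, fell (-0.45, adjusted p = 0.0384). The heme list had a median log2 fold change of -0.33. Of its genes 5 were lower and 0 higher at an unadjusted p under 0.05, against 806 and 600 of all tested genes. None of the 7 calls in these lists held in edgeR without the pair as a term, where 5 listed genes lower and 3 higher had an unadjusted p under 0.05. With no read minimum only ENB1 of these 7 genes passed (adjusted p = 0.0368), and with total counts FTR1, ARN1 and HEM1 did not.

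Between the pairs, the iron list had 2 of 20 genes lower and 1 higher in pair B, where 6.34% and 3.15% of all tested genes were. FET4, the low-affinity iron transporter, was at 44.9 and 38.8 CPM in the libraries of pair A and 15.9 and 18.4 CPM in those of pair B (log2 fold change -1.27, adjusted p = 0.0004). SMF3, a metal transporter of the vacuole membrane, was also lower (-0.60, adjusted p = 0.0137), and HMX1, heme oxygenase, was higher (0.44, adjusted p = 0.0482). COX17 rose with pair B (0.88, adjusted p = 0.0047) and the metallothionein gene CUP1-2, which has a near-identical copy and is therefore uncertain, fell (-0.40, adjusted p = 0.0467). Of the heme genes HEM13 (-0.81, adjusted p = 0.0015), HEM15 (-0.58, adjusted p = 0.0218) and HEM12 (-0.52, adjusted p = 0.0271) were lower in pair B. Of the regulators, edgeR called 0 of 9 between the pairs, with 1 at an unadjusted p under 0.05. Without the ploidy term none of these 8 list calls held in edgeR, with adjusted p-values from 0.170 (FET4) to 0.541 (CUP1-2). SMF3, HMX1, CUP1-2, HEM12 and HEM15 also failed with the DESeq2 test and with no read minimum, and COX17 with the DESeq2 test (adjusted p = 0.133).

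**Figure D5:**
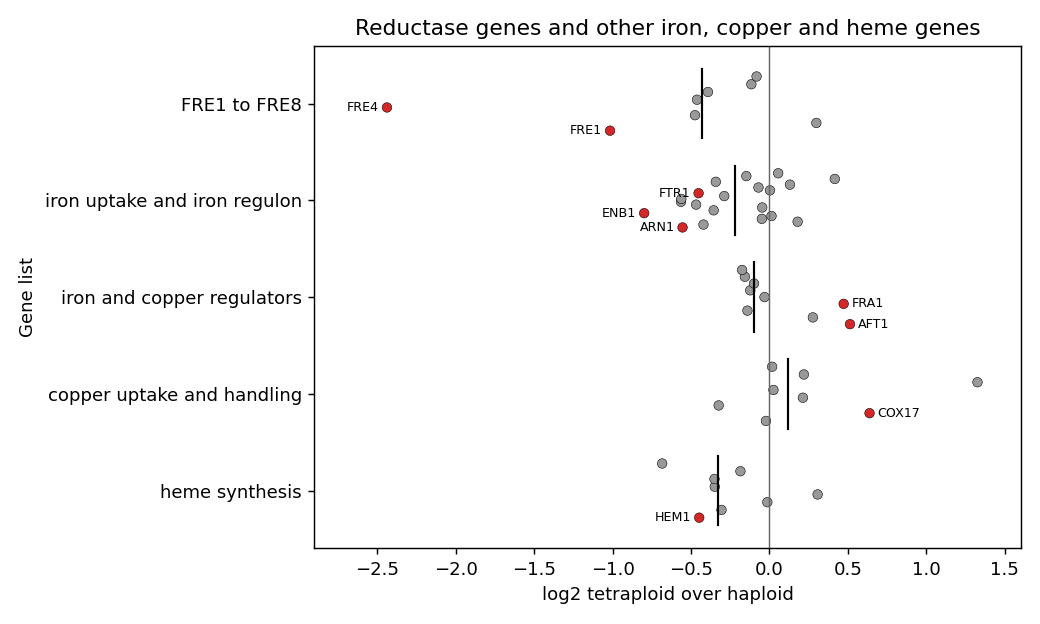
Log2 fold change of tetraploid over haploid for the reductase genes and the genes of 4 lists of iron, copper and heme function, with one point per gene, a vertical bar at the median of each list, and genes past the threshold in red with their names. Within the reductases FRE4 and FRE1 stand apart at -2.44 and -1.02, and ENB1 is the lowest called gene of the other lists at -0.80.

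In the S288C reference (assembly R64) the 8 coding sequences are 1863 to 2160 bases long, and no other annotated gene overlaps them. Every 36-base window of the 8 genes, the length of the sequenced reads, was found at 1 place only, so that in that strain reads would not be shared between members. FRE2 and FRE3 are the most alike, with 77.8% identity of coding sequence and a longest shared run of 34 bases. Most members lie towards chromosome ends. FRE2, FRE5, FRE3, FRE6, FRE7 and FRE4 have 3, 11, 15, 15, 17 and 18 genes between them and the nearer end, and FRE8 and FRE1 have 114 and 262.

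Of the 3 neighbours on each side of the members, 39 of 45 were tested, and in edgeR 3 fell and 1 rose in tetraploids, with a median log2 fold change of -0.18. Over all tested genes these shares were 5.35% and 2.52%. The 6 neighbours of FRE4 did not pass. The genes next to it, MNT4, a mannosyltransferase gene (-0.32, adjusted p = 0.353), and YNR061C (-0.45, adjusted p = 0.113), stood beside the -2.44 of FRE4. Beyond them the biotin genes BIO3 (-1.21, adjusted p = 0.0651) and BIO4 (0.31, adjusted p = 0.597) and the pulcherrimin-related genes PUL3 (-0.77, adjusted p = 0.234) and PUL4 (0.46, adjusted p = 0.497) differed in sign. BIO3 passed with the size factors of DESeq2 (adjusted p = 0.0169) and without the ribosomal DNA ORFs (0.0158), and its log2 fold change was -0.59 without either library of pair A and -1.91 to -1.92 without either of pair B. The called neighbours were COA4 near FRE1 (0.77, adjusted p = 0.0404), EMA19 near FRE8 (-0.49, adjusted p = 0.0387) and, near FRE7, HPF1 (-0.97, adjusted p = 0.0001) and ZPS1 (-2.72, adjusted p = 2.7e-06). ZPS1 was at 1779 CPM in haploid A against 187, 61.9 and 19.2 CPM in tetraploid A, haploid B and tetraploid B. None of these 4 calls held without the pair as a term, where ZPS1 had an adjusted p of 0.568.

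Between the pairs, 8 of 39 neighbours were lower in pair B (6.34% of all tested genes) and 0 higher (3.15%) in edgeR. At an unadjusted p under 0.05, 13 were lower and 1 higher, where 760 and 615 of all tested genes were. ZPS1 (-4.21, adjusted p = 2.7e-08), AQY2, an aquaporin gene near FRE6 (-2.19, adjusted p = 2.2e-06), YLL053C beside it (-2.01, adjusted p = 2.0e-06) and YOR385W near FRE5 (-1.41, adjusted p = 2.4e-05) had the largest differences. In haploid A, tetraploid A, haploid B and tetraploid B, AQY2 had 205, 190, 41 and 56 reads and YLL053C 209, 220, 52 and 68. Whether these adjacent ORFs are separate genes in Σ1278b was not tested, so they may not be 2 independent neighbours. HPF1, YNR061C, YBT1 and EMA19 ranged from -0.75 to -0.46. Without the ploidy term AQY2 and YLL053C passed (adjusted p = 0.0448 for each), and ZPS1 (0.378), YOR385W (0.0622), HPF1, YNR061C, YBT1 and EMA19 did not.

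The genes whose levels over the 4 libraries were most like those of FRE4 were found by the distance between log2 CPM values, each gene centred on its own mean. The nearest was STE2 at a distance of 0.34 log2 units, with 664 and 383 CPM in haploids and 119 and 94.9 CPM in tetraploids. YGL193C (0.57), YMR173W-A (0.61), AGA2 (0.63), which encodes the binding subunit of a-agglutinin, and DDR48 (0.66), a stress-responsive gene, followed. By its ORF name YMR173W-A lies at the DDR48 locus, and since reads of both strands were counted, the reads of the 2 ORFs may be shared. Of the family FRE1 was nearest to FRE4, at 1.43, with 51 other tested genes nearer than it.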

How the data were processed

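The authors mapped 36-base reads from poly(A) RNA to the Σ1278b genome with Bowtie, kept uniquely mapped reads for differential expression, and counted reads on both strands of each ORF. The deposited values are whole-number counts per ORF, with no normalization, and ORFs absent from a pair's tables were taken as 0. The labels gave ploidy and the pair letter. The design text names 2 biological replicates per ploidy, so that p-values rest on 2 cultures each.

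Counts were fitted with edgeR 4.0.16 (R 4.3.3) by the quasi-likelihood F test, with ploidy and pair as terms, TMM factors and library sizes summed over all ORFs. An ORF was tested if each pair had a library with 15 or more of its reads, which left 5680 ORFs. All adjusted p-values are edgeR's with Benjamini-Hochberg adjustment over these genes, with a threshold of 0.05, and SE is the log2 fold change divided by the root of F. The fit was tested on simulated data. The pair letter was kept as a block because the study compared libraries within pairs, and the deviations of same-lettered libraries from their group means correlated across genes (r = 0.52, genes not being independent replicates). Within-pair log2 values used a pseudocount of 0.5 reads.

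The members, the lists and the tests were chosen with earlier results of these data known. Named genes were the members, every listed gene or neighbour called in a comparison, a set of main iron and copper genes, the neighbours of FRE4, and the 5 genes nearest to the profile of FRE4. SIT1 and CTR3 were added after their values were seen. The R64 genome of S288C, another build than that of the counts, was used only for names (5754 ORFs matched), coding lengths, neighbours and uniqueness of windows. No coordinates or sequences are therefore printed. Of the listed pathway genes, FIT1 and TIS11 were below the read minimum, and LSO1 and CUP1-1 were not among the listed ORFs. Alternatives were the model without the block, DESeq2 1.42.0 and its size factors, total counts, counts without ribosomal DNA ORFs, other read minimums and the omission of each library.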

Additional observations from a re-analysis of the deposited data

Results flagged for a closer look

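The log2 fold change of tetraploid over haploid took opposite signs in the 2 pairs for 2 of the reductase genes, and the difference between the pairs was not tested for either. FRE2 stood at -0.11 for pair A and at 0.64 for pair B, on 13 to 28 reads per library. FRE7 stood at 0.12 for pair A and at -0.35 for pair B, on 10 to 15 reads per library.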

How the results depend on the processing

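Of 5680 genes, edgeR called 304 lower and 143 higher in tetraploids, and 4 listed iron, copper and heme genes lower and 3 higher. With no replicate block these were 18, 4, 0 and 0, and without the block, leaving out haploid A, tetraploid A, haploid B or tetraploid B gave 20, 75, 33 and 34 lower, 5, 8, 4 and 18 higher, and 0 listed genes each time (1 to 7 lower and 1 to 3 higher at an unadjusted p under 0.05). The size factors of DESeq2 in edgeR gave 490 lower and 262 higher, with 6 listed genes lower and 5 higher. Total counts gave 115 and 1168, with 1 listed gene lower and 6 higher. Without ribosomal DNA ORFs the counts were 473 and 283, with 6 listed genes lower and 5 higher. The DESeq2 test gave 135 and 25, with 1 listed gene lower and 0 higher (0 higher at an unadjusted p under 0.05). No read minimum gave 87 and 12, with 1 listed gene lower and 0 higher (5 at an unadjusted p under 0.05). A minimum of 30 reads gave 473 and 287, with 6 listed genes lower and 4 higher. Between pairs, edgeR called 360 lower and 179 higher in pair B. This was 7 and 0 without the ploidy term (223 higher at an unadjusted p under 0.05), 130 and 533 with total counts, 166 and 12 with DESeq2 and 125 and 15 with no read minimum. The higher count was 289 without ribosomal DNA ORFs and 292 at 30 reads, and without the ploidy term, leaving out haploid A gave 22 and 2, tetraploid A 165 and 48, and haploid B or tetraploid B 0 and 0 (105 to 223 lower and 66 to 144 higher at an unadjusted p under 0.05). Total counts shift every fold change by the same ratio of factors, and reversed FRE7 (0.17) and FRE8 (0.21) in tetraploids. DESeq2 gave FRE4 no adjusted p. The causes of the other changes were not tested. FRE2 and FRE7 fell below the minimum of 30 reads, and their depth of 10 to 28 reads limits what can be seen.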
